A study of Mus musculus with 8 samples.

Results

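The liver libraries of a bulk RNA sequencing series of mouse tissues were compared with the kidney, lung and small intestine libraries of the same series. The members were chosen by tissue label alone, which gave 2 liver libraries of 8 libraries in all, against 6 libraries from the other 3 tissues, with 2 in each. All 8 came from C57BL/6 animals aged 6 to 10 weeks with no treatment named in the labels, and by the methods of the study the mice were male and of the C57BL/6J line. Polyadenylated RNA of whole ground tissue was sequenced, so each library mixes all cell types of its organ. In such bulk samples fewer cells of a type and less RNA per cell cannot be told apart.

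The liver is built mostly from hepatocytes, which release most proteins of the blood plasma, store and export glucose, turn ammonia into urea, make bile acids and modify drugs and hormones for excretion. Macrophages called Kupffer cells, fenestrated sinusoidal endothelium, stellate cells that store vitamin A, and bile duct epithelium make up much of the rest. Hepatocyte gene activity is known to depend on a set of transcription factors, among them HNF4A, the FOXA proteins and the C/EBP proteins, which act together on promoters and enhancers of liver genes.

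The deposited values are FPKM, fragments per kilobase of transcript, scaled to library size, for 52195 genes. Each library was rescaled here by the median over genes of its ratio to the geometric mean of all libraries, and levels below are these scaled FPKM unless stated. Between 9162511 reads in liver replicate 1 and 21440844 reads in kidney replicate 1 stood behind a library, and 3 reads on 1 kb of exons correspond to a deposited FPKM of 0.327 and 0.291 in the liver libraries. Mitochondrial genes and their nuclear copies held between 40.5% and 43.6% of the deposited FPKM in liver, 63.1% to 68.4% in kidney, 48.7% to 48.8% in small intestine and 22.8% to 25.4% in lung. All 10 hepatocyte markers were higher in liver than the mean of the other 3 tissues (12.3% of all genes were). Of these, 8 were higher than each of the 3 tissues (6.17%).

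Liver was tested against the mean of the other 3 tissues with limma on log2(scaled FPKM + 1), where the added 1 shrinks the differences of low genes. A gene was called at an adjusted p under 0.05 and a log2 difference beyond 1. Of 16328 genes tested, 2003 (12.3%) were higher and 2274 (13.9%) lower in liver. With the values as deposited, 1071 (6.56%) were higher and 5334 (32.7%) lower. Called the same way with both scalings were 1071 genes (6.56%) higher and 2271 (13.9%) lower, and no gene was called in opposite directions. The liver libraries had the lowest scaling factors (0.552 and 0.627), so the deposited values set liver lower for most genes. That the lower calls of the scaled fit were nearly all kept, while 932 higher calls were lost, follows from this shift. The deposited values are therefore a check on the higher calls only. The median log2 difference over all genes tested was -0.14 after scaling and -0.72 as deposited. The share of higher genes among all calls was 46.8% after scaling and 16.7% as deposited.

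**Figure D1:**
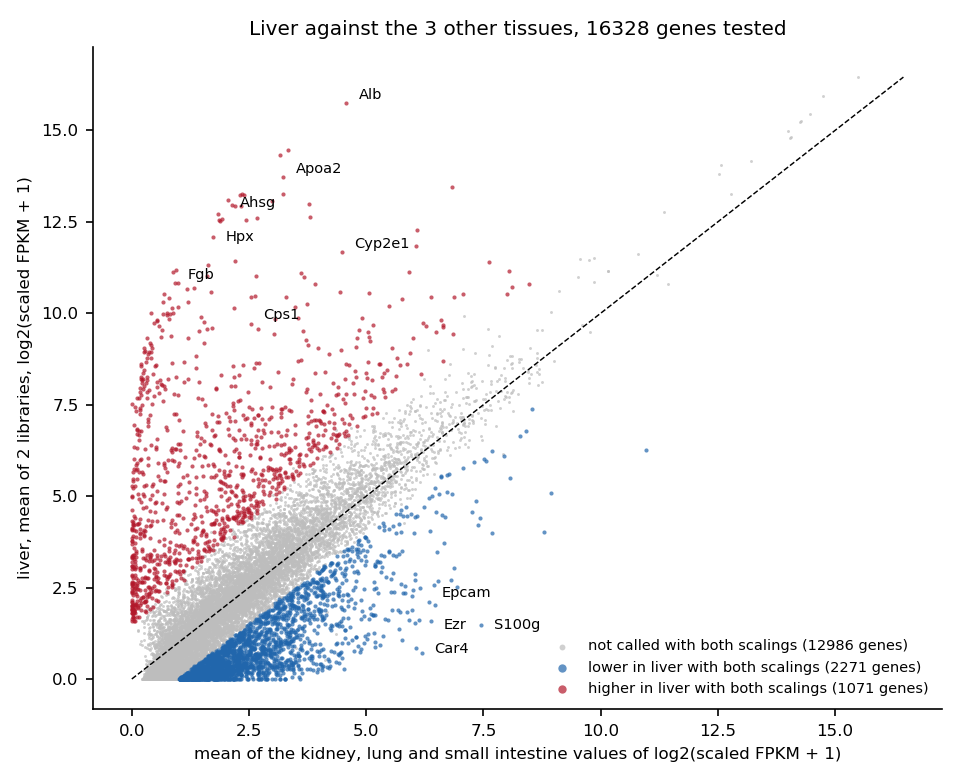
Mean of the 2 liver libraries (y axis) against the mean of the kidney, lung and small intestine values (x axis), both as log2(scaled FPKM + 1), 1 point per gene tested, with the dashed line at equal levels. Red points are the 1071 genes higher and blue points the 2271 genes lower with both scalings, and their median differences were 3.15 and -1.53.

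The genes higher with both scalings were abundant ones. Their median level in liver was 46.4 and their median log2 difference 3.15. They held 73.1% and 73.4% of the non-mitochondrial FPKM of the liver libraries, against 10.2% to 11.2% in kidney, 7.87% to 8.07% in small intestine and 3.22% to 3.50% in lung. Kidney was the next highest tissue for 574 of them (53.6%), lung for 248 and small intestine for 249. In 540 genes liver lay more than 2 log2 units above the next tissue, and in 76 another tissue was as high or higher. The genes lower with both scalings were mostly at low levels in liver. Their median log2 difference was -1.53, and 1542 of them (67.9%) had a mean level below 1 in liver. Small intestine was the highest tissue for 921, lung for 840 and kidney for 510, and in 687 genes liver was not the lowest of the 4 tissues. When a gene had to pass against each of the 3 tissues separately, 1008 genes (6.17%) were higher and 310 (1.9%) lower.

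Among genes called with both scalings, with both liver libraries beyond the other 6 and a mean level of at least 10, the 10 largest differences, with at most 1 gene per symbol family, belonged to Mup3, Alb, Ahsg, the pseudogene Mup-ps19, Serpina3k, the unmatched model Gm21320, Apoa2, Hpx, Gc and Fgb. Mup3 encodes a major urinary protein, a pheromone carrier that the mouse liver secretes for excretion in urine, and lies on chromosome 4 (GRCm38, 62083476 to 62087342, minus strand). It was at 21691 and 23376 in liver, 4.58 and 26.7 in kidney, 16.3 and 7.78 in lung, and 3.17 and 4.10 in small intestine. Alb encodes albumin, the main plasma protein, on chromosome 5 (90460897 to 90476602, plus strand). It was at 62728 and 46809 in liver, 15.1 and 56.7 in kidney, 37.97 and 20.5 in lung, and 9.79 and 12.3 in small intestine. Both genes therefore separated the tissues without overlap by over 2 orders of magnitude, with log2 differences of 11.30 (SE 0.56, adjusted p = 3.0e-06) for Mup3 and 11.27 (SE 0.47, adjusted p = 1.3e-06) for Alb.

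Ahsg, the plasma glycoprotein fetuin-A, was at 10210 and 7161 in liver and between 0.972 and 7.91 in the other libraries. Hpx, the heme scavenger hemopexin, was at 4352 and 4415 in liver and between 0.844 and 4.61 elsewhere. Gc, the vitamin D carrier, was at 6293 and 5780 in liver, at 14.1 and 22.2 in kidney, and between 0.914 and 3.97 in lung and small intestine. Kidney was thus the only other tissue with Gc above 4. Apoa2, a protein of high-density lipoprotein, was at 13817 and 13079 in liver and between 3.96 and 20.5 elsewhere. Fgb, the beta chain of fibrinogen, was at 1877 and 1724 in liver and between 0.229 and 2.59 elsewhere. The log2 differences of these 5 genes ran from 9.94 for Fgb to 11.12 for Ahsg. Serpina3k, a protease inhibitor with close relatives in a gene cluster, had a log2 difference of 11, Mup-ps19 of 11.05 and Gm21320 of 11. Mup models, Mup-ps19 and clade A serpins share long stretches of near-identical sequence, and how the authors' counting divided such reads is not given in the sources used here, so their single values are uncertain.

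Genes with the largest differences were mostly read at low levels in the other 3 tissues. For the 50 genes of largest difference, the median level as a percentage of the liver mean was 0.0251% in kidney replicate 1 and 0.120% in kidney replicate 2, 0.0762% and 0.0410% in lung, and 0.0193% and 0.0230% in small intestine. The gap between the 2 replicates of a tissue in this median was thus widest in kidney. In the other direction, the 6 kidney tubule markers stood in liver at a median of 0.241% and 0.324% of their kidney level, and the 6 lung epithelium markers at 0.530% and 0.370% of their lung level. Kap, an abundant kidney transcript, was at 60.4 and 79.9 in liver, compared with 14714 and 44051 in kidney, and Scgb1a1, the secretoglobin of airway club cells, at 103 and 95.3 against 24320 and 31458 in lung. The part of such traces in the results was not tested.

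**Figure D2:**
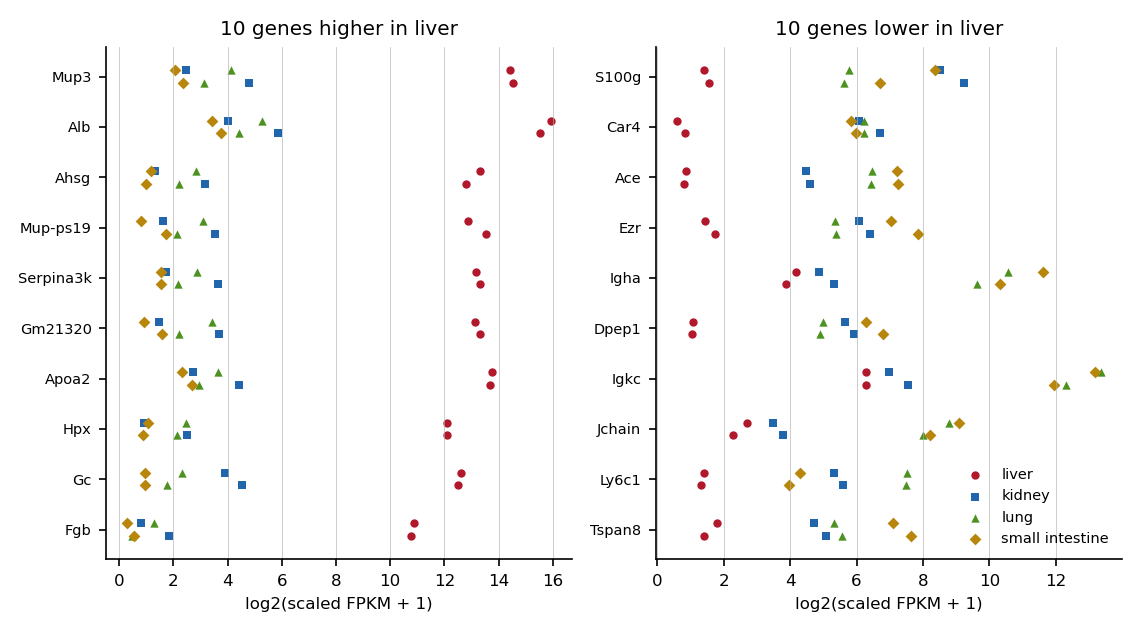
Level as log2(scaled FPKM + 1) (x axis) of the 10 genes with the largest difference in each direction, 1 row per gene and 1 point per library colored by tissue. As the rule for naming them required, the 2 liver points lie to the right of the other 6 in all 10 higher genes and to the left in all 10 lower genes.

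Promoters of genes with large differences are shown to compare their letters. The sequences are the 120 bases before the transcription start in the RefSeq annotation of GRCm38.p6, 5′ to 3′ on the strand of the gene. In the first 3 the capitals mark the word GTTAAT, known from promoters of liver genes, on either strand, in the next 2 the TATA word TATAAA on either strand, and in the last every CG pair. Alb lies at chr5:90460750-90460869, Fgb at chr3:83049864-83049983, Fga at chr3:83026033-83026152, Cyp2e1 at chr7:140763699-140763818, Cyp2d10 at chr15:82407195-82407314 and Ezr at chr17:6782781-6782900.
Alb: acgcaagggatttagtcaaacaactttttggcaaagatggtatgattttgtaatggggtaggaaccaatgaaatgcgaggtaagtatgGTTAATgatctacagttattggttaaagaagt
Fgb: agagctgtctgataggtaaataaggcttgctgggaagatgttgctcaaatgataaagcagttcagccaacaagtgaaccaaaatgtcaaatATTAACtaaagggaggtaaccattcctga
Fga: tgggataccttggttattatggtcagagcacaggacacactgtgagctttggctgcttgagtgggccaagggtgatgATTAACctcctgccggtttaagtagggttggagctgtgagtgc
Cyp2e1: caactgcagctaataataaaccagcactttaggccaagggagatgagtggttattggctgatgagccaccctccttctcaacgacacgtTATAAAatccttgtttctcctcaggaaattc
Cyp2d10: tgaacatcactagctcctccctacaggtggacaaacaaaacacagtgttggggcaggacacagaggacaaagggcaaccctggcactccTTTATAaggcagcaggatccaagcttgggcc
Ezr: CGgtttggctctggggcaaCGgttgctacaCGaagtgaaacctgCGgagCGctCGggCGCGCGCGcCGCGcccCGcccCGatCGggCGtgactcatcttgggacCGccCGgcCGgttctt

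Of these 6 chosen promoters, the 5 of genes higher in liver hold between 0 and 2 CG pairs in the stretch shown, and that of Ezr, which was lower, holds 19. This contrast did not extend to all genes read, since windows of 300 bases held 27 CG pairs for Igfbp4 and 21 for Pros1, both higher in liver, and 2 for 1 promoter of Ace, which was lower. Over the full windows of 300 bases, from 250 before to 50 after the start, 18 of the 21 coagulation genes of the list below had an entry. Of their 18 promoters 5 (27.8%) held GTTAAT on either strand, as did 7.1% of all 32851 promoters of the table, and 1 (5.56%) held TATAAA. The 59 other words made from the same letters were found in a median of 11.1% of these coagulation promoters and 8.06% of all promoters. For the oxidation enzymes of drug metabolism, 22 of 24 had an entry, and TATAAA was found in 10 of 27 promoters (37.0%) against 13.6% of all promoters, while GTTAAT was found in 2 (7.41%). Of 21 promoters of secreted hormones and growth factors, 3 (14.3%) held GTTAAT and 4 (19.0%) held TATAAA. The C/EBP word TTGCGCAA was found in no promoter of these lists (0.183% of all promoters). The HNF4 word CAAAGTCCA was found in 7.41% of drug oxidation promoters (0.475% of all) and in no coagulation or hormone promoter. The FOXA word TGTTTAC was found in 11.1% of coagulation, 4.76% of hormone and 3.70% of drug oxidation promoters (3.65% of all). CCAAT was found in 22.2%, 33.3% and 66.7% of them in this order (37.4% of all). The median number of CG pairs was 5 in the coagulation promoters, 2 in the drug oxidation promoters and 7 in all promoters. Paralogous P450 promoters share sequence and are not independent, and a word found in a window is a description of its letters only. The table held an entry for fewer than 80% of all genes called, so a check over the called genes is void.

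The lists named from here on group known genes by function. Over the 14 lists of liver functions as a whole, 281 of 288 genes were tested, of which 259 (92.2%) were higher, 3 lower and 19 not called, against 12.3% higher and 13.9% lower over all genes. Over the 8 lists of genes characteristic of other tissues or cell types, 175 of 179 were tested, of which 107 (61.1%) were lower, 10 higher and 58 not called. The genes were chosen as characteristic of their tissue with earlier results known, so these shares describe the lists.

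**Figure D3:**
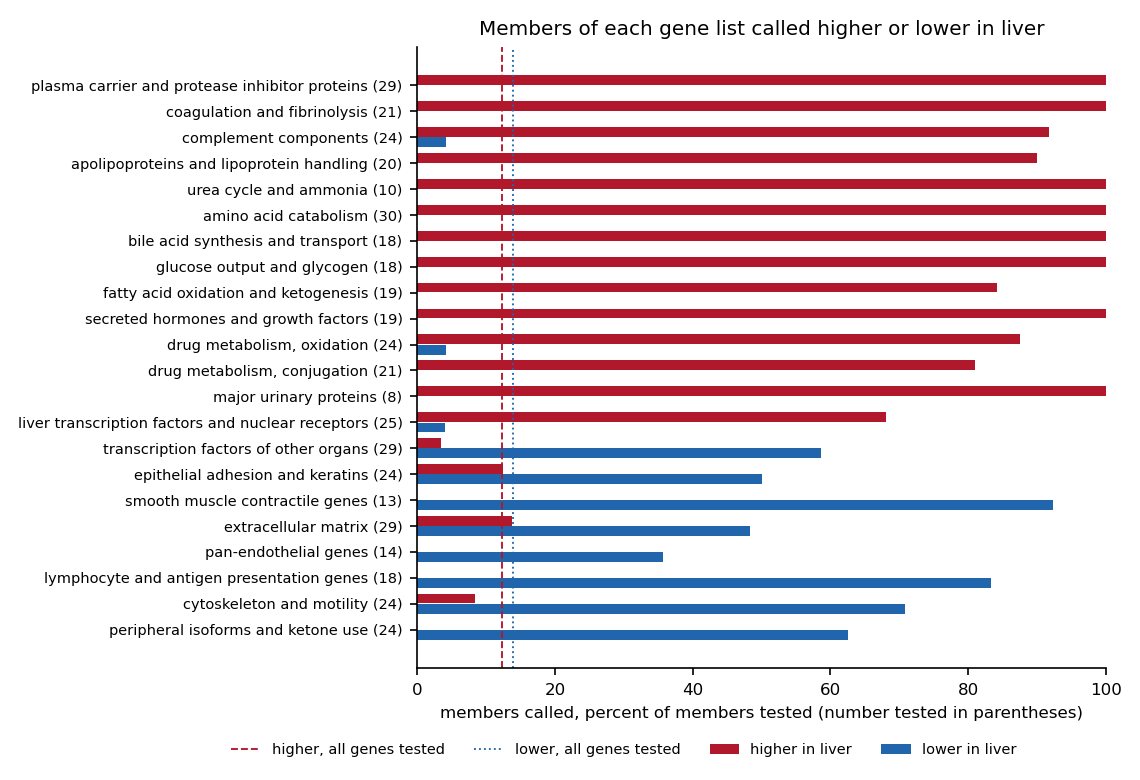
Percent of tested members called higher (red) or lower (blue) in liver (x axis) for each gene list, with the number tested in parentheses (y axis), and lines at the percent of all genes tested, 12.3% higher and 13.9% lower. In the 13 lists of secreted proteins and metabolism between 81.0% and 100% of members were higher, while lymphocyte, smooth muscle and cytoskeletal lists hold mostly lower ones.

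Plasma carriers and protease inhibitors were higher without exception. All 29 genes were called with both scalings, all 29 had both liver libraries above the other 6 (15.5% of all genes did), and all 29 passed against each other tissue. Their median log2 difference was 7.54, and together they held 18.0% and 15.7% of the non-mitochondrial FPKM of the liver libraries, of which albumin alone held 9.83% and 7.90%. Levels within the list differed widely. Saa1, a serum amyloid A that is made on inflammation, was at 10.4 and 14.0 in liver and at most 0.204 elsewhere, and Saa2 at 3.14 and 6.07. Hp, which encodes the hemoglobin scavenger haptoglobin, was at 2141 and 1911 in liver but also at 306 and 277 in lung, with 0.997 to 3.05 in kidney and small intestine. Lung thus held the second highest level of haptoglobin, as it did for Lrg1, a leucine-rich glycoprotein, at 32.7 and 18.4 against 181 and 164 in liver. Major urinary proteins were higher in 8 of 8 members tested with a median log2 difference of 10.80, and all Mup models together held 15.01% and 19.3% of the non-mitochondrial FPKM in liver. Mup4 and Mup5 did not pass the filter on low values.

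All 21 coagulation and fibrinolysis genes were higher, with a median log2 difference of 6.92. The fibrinogen chains were of like level, with Fgg at 1638 and 1604 in liver, Fga at 1315 and 1202, and at most 5.74 for either in any other library. Plg, the precursor of the fibrin-cleaving protease plasmin, was at 977 and 814 in liver and at most 0.846 elsewhere. F2, which encodes prothrombin, was at 567 and 416 and at most 0.735 elsewhere. All 4 genes were hence below 6 in every other library. Several others had a second tissue. F13b, a subunit of the fibrin cross-linking factor XIII, was at 144 and 140 in liver, with 53.5 and 63.9 in kidney, and Proc, protein C, at 426 and 369 in liver, with 68.4 and 97.0 in kidney. F7, the first protease of the tissue factor pathway, was at 91.3 and 78.0 in liver, with 8.40 and 5.61 in lung. The smallest difference was that of Pros1, the cofactor of protein C, at 17.6 and 13.9 in liver, compared with 13.3 and 12.2 in lung, with a log2 difference of 1.27 (SE 0.20), and it was not called with the deposited values.

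Complement genes were higher in 22 of 24, with a median log2 difference of 4.92. Components of the membrane attack complex led the list. C9 was at 426 and 522 in liver and at most 0.535 elsewhere, and C8b at 233 and 263 and at most 0.288. C3, on which all complement pathways converge, was at 1252 and 1066 in liver, 63.7 and 60.4 in lung, and 1.73 to 5.93 in the other 2 tissues. Lung was also second for Hc, which encodes C5, at 32.1 and 31.6 against 97.7 and 100.4 in liver. The 3 chains of C1q, which macrophages make, were higher in liver after scaling, with C1qa at 43.9 and 41.3 in liver, 5.96 and 8.11 in kidney, 34.0 and 23.8 in lung, and 33.0 and 21.9 in small intestine, but none of the 3 was called with the deposited values. Cfd, factor D, known as the fat cell product adipsin, was lower, at 2.79 and 0.335 in liver, compared with 56.8 and 31.1 in lung and 14.9 and 15.8 in small intestine (log2 difference -2.33, SE 0.43). Cfb, factor B, was not called, at 0.280 and 0.984 in liver, and 79.5% of its exon bases are shared with another annotated gene.

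Of 20 genes for lipoproteins, 18 were higher and 2 not called, with a median log2 difference of 6.23, and 17 were higher than small intestine, the other organ that makes lipoproteins (14.0% of all genes were), while 2 were lower (15.8%). A few members were as high or higher there. Apoa1, the main protein of high-density lipoprotein, was at 5743 and 4098 in liver, with 4678 and 4949 in small intestine, so the groups overlapped. Apob, the structural protein of very-low-density lipoprotein and chylomicrons, was at 178 and 119 in liver, with 44.2 and 58.1 in small intestine. Mttp, the transfer protein that loads lipid onto it, was at 47.7 and 43.2 in liver, with 235 and 277 in small intestine, and Apoa4, an intestinal apolipoprotein, at 9.91 and 8.85 against 544 and 445. Mttp was therefore called higher than the mean of 3 tissues although small intestine exceeded liver. Apoe, a ligand of lipoprotein receptors, was at 12422 and 10063 in liver and between 52.2 and 211 elsewhere. Apoc1 was at 2665 and 2464 and at most 5.84 elsewhere. Pltp, the phospholipid transfer protein, was not called, with its highest values of 69.3 and 74.1 in lung.

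The urea cycle separated by step. All 10 members tested were higher, with a median log2 difference of 4.83. Cps1, which makes carbamoyl phosphate from ammonia, was at 908 and 773 in liver, 77.0 and 72.3 in small intestine and at most 1.23 in kidney and lung, and Otc, the next enzyme, at 248 and 264 in liver, with 45.8 and 54.2 in small intestine. Ass1, which joins citrulline to aspartate, was at 1902 and 1130 in liver, with 844 and 1245 in kidney. The first steps were thus shared with small intestine and the argininosuccinate step with kidney. Kidney overlapped liver for Ass1. Glul, glutamine synthetase, had the smallest difference, at 73.2 and 120 in liver, with 68.2 and 53.3 in kidney (log2 difference 1.99, SE 0.25), and was not called with the deposited values.

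All 30 genes of amino acid catabolism were higher, with a median log2 difference of 5.36. Against single tissues, 26 were higher than kidney (10.6% of all genes were), 30 higher than lung (17.9%) and 28 higher than small intestine (14.0%). These 3 comparisons share the liver libraries. Tat, which starts tyrosine breakdown, was at 1621 and 1117 in liver and at most 1.84 elsewhere. Mat1a, which makes S-adenosylmethionine, was at 1163 and 893 and at most 2.88 elsewhere. Tdo2, which opens the tryptophan ring, was at 859 and 735 and at most 1.003 elsewhere. Other enzymes of the list were also present in kidney. Hgd, a dioxygenase of tyrosine breakdown, was at 362 and 362 in liver, with 112 and 166 in kidney, and Aass, of lysine breakdown, at 136 and 116 in liver, with 125 and 130 in kidney, so that the tissues overlapped for Aass. Acmsd, which directs tryptophan breakdown away from NAD, was at 15.98 and 14.3 in liver but 30.4 and 37.7 in kidney. Sdsl, a serine dehydratase-like enzyme with 16.2 and 12.4 in small intestine, was not called with the deposited values.

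Bile acid genes were higher in 18 of 18 tested with both scalings, with a median log2 difference of 4.69. Slc27a5, which activates bile acids before their conjugation, was at 662 and 508 in liver and at most 0.494 elsewhere. Slc10a1, the sodium-driven bile acid importer of the sinusoidal membrane, was at 324 and 327 and at most 0.914 elsewhere. Abcb11, the export pump of the canalicular membrane, was at 121 and 99.6 and at most 0.187 elsewhere. Uptake and export carriers were thus both below 1 outside liver. Cyp7a1, the rate-limiting enzyme of synthesis, was much lower, at 5.40 and 12.5 in liver, and listed at 0 in all 6 other libraries. Cyp8b1, the sterol 12-hydroxylase, was at 169 and 242 in liver and at most 0.695 elsewhere. The sterol exporters Abcg5 and Abcg8 were as high in small intestine as in liver, and Abcg5 was at 37.7 and 36.7 in liver, with 60.3 and 97.7 in small intestine. Hsd3b7, of the early ring modification, was listed at 0 in all 8 libraries, and 99.2% of its exon bases are shared with another annotated gene.

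All 18 genes of glucose output and glycogen were higher than the mean of the other tissues, with a median log2 difference of 3.88, and 10 were higher than kidney (10.6% of all genes were), 18 than lung (17.9%) and 13 than small intestine (14.0%). Together they held 0.988% and 0.914% of the non-mitochondrial FPKM in liver, less than the 1.67% and 1.44% in kidney. Gckr, a regulatory protein of sugar use, was at 56.6 and 48.3 in liver and at most 0.0742 elsewhere. Ppp1r3b, which targets a phosphatase to glycogen, was at 41.6 and 37.0 and at most 0.825 elsewhere. Gluconeogenesis was shared with kidney. G6pc, which frees glucose for release, was at 303 and 458 in liver, with 247 and 275 in kidney. Fbp1, fructose bisphosphatase, was at 758 and 664 in liver, with 532 and 702 in kidney, where the ranges overlapped. Khk, ketohexokinase of fructose use, was at 241 and 213 in liver, 261 and 400 in kidney and 261 and 231 in small intestine, so liver exceeded only lung, at 5.40 and 6.13. Khk, Slc37a4 and Tkfc were not called with the deposited values.

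Genes of fatty acid oxidation and ketone production were split by scaling. Of 19 genes tested 16 were higher with a median log2 difference of 2.05, and only 10 of the 16 were called with both scalings. Cyp4a14, a fatty acid hydroxylase, differed between the liver libraries, at 322 and 85.8, and stood at 21.1 and 10.9 in kidney. The long-chain and medium-chain dehydrogenases were not highest in liver. Acadm, the medium-chain enzyme, was at 92.6 and 74.4 in liver, with 172 and 210 in kidney. Its log2 difference was 1.14, and 0.98 without liver replicate 1, which ended the call. The same held for Hadhb, a subunit of the trifunctional protein, at 1.06 with and 0.94 without that library, and neither was called with the deposited values. Acadl, Hadh and Acot1 were not called. Fgf21, a fasting hormone, did not pass the filter.

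Secreted hormones and growth factors were higher in 19 of 19 tested with both scalings, with a median log2 difference of 5.12. Hamp, hepcidin, the hormone that limits iron uptake, was at 678 and 1607 in liver and at most 2.75 elsewhere, with a gap of more than 2-fold between the liver replicates. Igf1, the growth factor that growth hormone induces, was at 76.2 and 73.9 and at most 1.45 elsewhere. Igfbp1, which binds it, was at 107 and 163 in liver, with 6.44 and 5.69 in kidney. Agt, angiotensinogen, was at 450 and 318 in liver, with 19.4 and 27.2 in kidney, whereas Ace, which cleaves its product, was lower in liver, at 0.822 and 0.759. Substrate and enzyme of this hormone system were hence at their highest in different organs of these 4. Thpo, thrombopoietin, was lower in level, at 7.85 and 7.65 in liver, with 3.28 and 2.97 in kidney. Ghr, the growth hormone receptor, was at 52.3 and 51.7 in liver, with 44.2 and 47.5 in kidney, a gap of less than 1 log2 unit.

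Oxidation enzymes of drug metabolism were higher in 21 of 24 with both scalings, with a median log2 difference of 6.81. Ces1c, a secreted carboxylesterase, was at 2036 and 1579 in liver and at most 2.14 elsewhere. Cyp2d10 was at 788 and 702 and at most 0.890 elsewhere, and Cyp2c50 at 578 and 482 and at most 0.633. Both are P450 enzymes of families with close paralogs, for which reads may be divided. Other P450 genes had a second organ. Cyp2e1, which oxidises ethanol and acetaminophen, was at 3872 and 2643 in liver, with 415 and 483 in kidney. Cyp3a11, a main steroid and drug oxidase, was at 2284 and 2126 in liver, with 172 and 415 in small intestine. Cyp2f2, known from club cells, was at 829 and 646 in liver, with 419 and 449 in lung. Kidney, small intestine and lung thus each held a different P450 of the list at high level. Cyp2b10, an enzyme that barbiturates induce, was lower, at 8.04 and 2.85 in liver, compared with 74.7 and 66.1 in lung and 183 and 217 in small intestine (log2 difference -2.21, SE 0.31). Por, the electron donor of all microsomal P450 enzymes, was at 120 in liver replicate 1 and 46.3 in liver replicate 2 and was not called (log2 difference 0.77), but was higher without liver replicate 2 (1.44, adjusted p = 0.0057).

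Conjugation enzymes were higher in 17 of 21, with a median log2 difference of 3.34, and 15 of them with both scalings. Ugt2b1, a glucuronosyltransferase, was at 499 and 473 in liver and at most 0.344 elsewhere, and Sult2a8, a bile acid sulfotransferase, at 370 and 387 and at most 0.318. Gstp1, a glutathione transferase that is high in male mouse liver, was at 2463 and 2935 in liver and between 93.8 and 404 elsewhere. Not every member followed. Ugt3a2 was at 180 and 155 in liver but 403 and 478 in kidney. Nat8 and Sult1d1 were not called, with 172 and 298 and with 197 and 244 in kidney against 31.7 and 26.4 and 61.8 and 49.7 in liver. In all, 3 members were lower in liver than in kidney (11.4% of all genes were) and 15 higher (10.6%).

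Transcription factors had smaller differences than the lists of secreted proteins. Of 27 liver factors and nuclear receptors 25 were tested, of which 17 were higher, 1 lower and 7 not called, with a median log2 difference of 2.05. The largest difference was that of Nr0b2, the receptor SHP that feeds back on bile acid synthesis, at 101 and 67.6 in liver and between 0.112 and 4.70 elsewhere. Creb3l3, a membrane-bound factor for lipid genes, was at 129 and 114 in liver, with 109 and 149 in small intestine. Foxa3 was at 22.2 and 16.7 in liver, with 4.51 and 4.10 in small intestine, and Foxa2 at 12.1 and 10.7 in liver, with 9.11 and 9.65 in lung. Creb3l3, Foxa3 and Foxa2 thus each had a second organ with a level of at least 4. Hnf4a, the receptor best known for the hepatocyte program, was at 111 and 96.1 in liver, 91.0 and 86.5 in kidney, 53.2 and 75.7 in small intestine and 0.421 and 0.184 in lung. Its log2 difference of 2.42 (SE 0.18) thus arose almost wholly against lung. Foxa1 was not called, at 3.74 and 2.97 in liver, with 6.29 and 5.76 in lung.

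Other factors of the list can be grouped by where else they were found. Cebpa and Cebpb, the C/EBP factors, were highest in liver, at 121 and 120 and at 40.6 and 33.9, with lung next at 22.5 and 25.3 and at 17.4 and 25.02. Prox1, at 7.30 and 13.8, and Nr5a2, at 12.4 and 10.9, were higher in liver, and so was Rxra, the partner of many nuclear receptors, at 47.4 and 42.8 against 4.89 to 14.9 elsewhere. Sensors of nutrients and bile acids also had a second organ. Mlxipl, the carbohydrate-sensing factor, was at 88.9 and 77.0 in liver, with 30.0 and 36.9 in small intestine, and Ppara, the fatty acid receptor, at 23.2 and 23.8 in liver, with 11.1 and 6.62 in kidney. Nr1h4, the bile acid receptor FXR, was at 44.3 and 51.1 in liver, with 29.4 and 42.2 in kidney, and Nr1i2, the xenobiotic receptor PXR, at 37.7 and 23.8 in liver, with 27.7 and 42.9 in small intestine. The ranges of Nr1i2 overlapped. Onecut2, at 6.96 and 5.65, Nr1i3, the receptor CAR, at 2.73 and 2.34, and Thrb, the thyroid hormone receptor beta, at 5.92 and 6.15, were higher too, Thrb with the scaled values only, and 74.9% of the exon bases of Nr1i3 are shared with another annotated gene. Gata4, at 3.34 and 3.84 in liver, with 23.1 and 24.0 in small intestine, Xbp1 and Gata6 were not called. Tbx3 was lower, at 0.746 and 2.03 in liver, compared with 10.3 and 14.95 in small intestine, with a log2 difference of -1.19 that was -0.80 without liver replicate 1 and then not called. Onecut1 and Esr1 did not pass the filter.

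**Figure D4:**
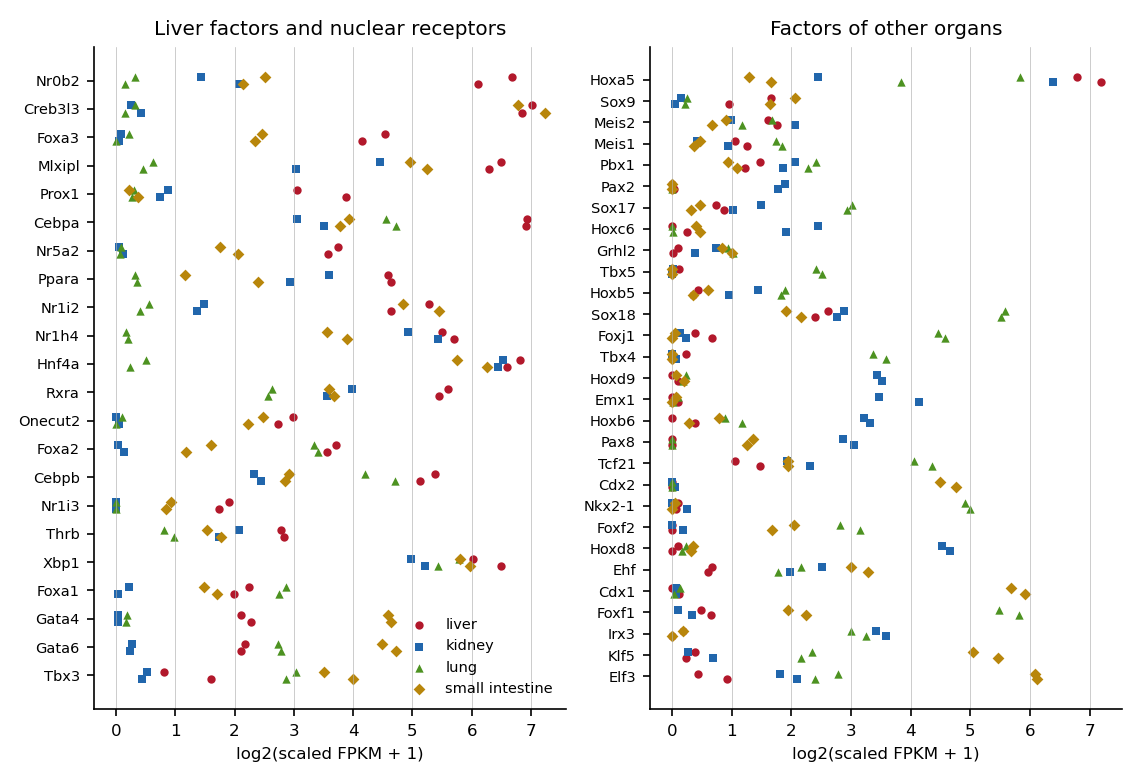
Level as log2(scaled FPKM + 1) (x axis) of the liver transcription factors and nuclear receptors (left) and of the factors of other organs (right), 1 row per gene and 1 point per library colored by tissue. For Hnf4a and Nr1h4 the kidney points lie next to the liver points, while for Nr0b2 the liver points stand apart.

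Of 29 factors of other organs tested, 17 were lower in liver, 1 was higher and 11 were not called. Against single tissues, 10 were lower than kidney (11.4% of all genes were), 14 lower than lung (19.4%) and 8 lower than small intestine (15.8%). Only 2 were lower than each of the 3 tissues (1.9%), so most were low in another tissue as well. Elf3, an epithelial factor, was at 0.356 and 0.905 in liver, with 66.8 and 68.6 in small intestine. Cdx1, of the intestine, was at 0 and 0.0882 in liver, with 50.4 and 59.4 in small intestine, and Nkx2-1, of lung, at 0.0695 and 0.0543 in liver, with 29.1 and 30.8 in lung. Pax8, of kidney, was listed at 0 in both liver libraries and at 6.34 and 7.31 in kidney. These factors of the other 3 organs were thus at or near 0 in liver. The exception was Hoxa5, a homeobox gene on chromosome 6, at 110 and 144 in liver, 4.44 and 82.6 in kidney, 55.7 and 13.4 in lung, and 1.44 and 2.16 in small intestine. Both liver values were above the other 6, but kidney and lung replicates differed widely, and the log2 difference of 3.42 (SE 0.96, adjusted p = 0.017) was no longer called without liver replicate 1 (adjusted p = 0.093), liver replicate 2 (0.119) or lung replicate 2 (0.051).

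By the same rule as above, the 10 largest differences among genes lower in liver belonged to S100g, Car4, Ace, Ezr, Igha, Dpep1, Igkc, Jchain, Ly6c1 and Tspan8. S100g, calbindin-D9k, which buffers calcium during its uptake, was at 1.65 and 1.93 in liver, 362 and 598 in kidney, 53.7 and 47.8 in lung, and 328 and 102 in small intestine, and rested on 4 and 6 reads in liver. Car4, a carbonic anhydrase on the cell surface (chromosome 11, 84957786 to 84966044, plus strand), was at 0.502 and 0.785 in liver and between 55.4 and 102 in the other 6. Ace, the angiotensin-converting enzyme, was at 0.822 and 0.759 in liver, 21.2 and 23.1 in kidney, 87.6 and 85.0 in lung, and 147 and 152 in small intestine. These 3 genes had log2 differences of -5.88 (SE 0.41, adjusted p = 2.0e-05), -5.46 (SE 0.19, adjusted p = 4.7e-07) and -5.23 (SE 0.12, adjusted p = 7.0e-08). Ezr, ezrin, which ties microvilli to actin, was at 1.68 and 2.35 in liver and between 40.2 and 232 elsewhere. Dpep1, a membrane dipeptidase, was at 1.11 and 1.06 in liver and between 29.0 and 111 elsewhere. Tspan8, a tetraspanin, was at 2.44 and 1.63 and between 25.02 and 196 elsewhere. Ly6c1, a surface protein of endothelial and blood cells, was at 1.65 and 1.47 and highest in lung, at 183 and 179. The rule for these 10 genes required both liver libraries below the other 6.

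Antibody genes set liver and kidney apart from lung and small intestine. Igkc, the constant region of the kappa light chain, was at 76.5 and 76.3 in liver, 124 and 184 in kidney, 10478 and 5108 in lung, and 9336 and 3969 in small intestine. Igha, the heavy chain of IgA, was at 16.9 and 13.6 in liver, 28.2 and 39.1 in kidney, 1508 and 792 in lung, and 3128 and 1275 in small intestine. Jchain, which joins IgA into dimers, was at 5.49 and 3.86 in liver, 10.1 and 12.8 in kidney, 435 and 257 in lung, and 541 and 296 in small intestine. Liver was the lowest tissue for all 3, but far closer to kidney than to the others. Of 18 lymphocyte and antigen presentation genes 15 were lower, with a median log2 difference of -1.57. None of the 18 passed the threshold against kidney, whereas 17 were lower than lung (19.4% of all genes were) and 14 lower than small intestine (15.8%). Ccl5, a chemokine of T cells, was at 0.206 and 1.61 in liver, with 40.01 and 32.4 in small intestine. Cd79a, a part of the B cell receptor, was at 0.678 and 0.742 in liver, with 36.8 and 56.4 in lung. H2-Eb1, an MHC class II chain, was at 20.9 and 20.1 in liver, 31.1 and 32.3 in kidney and 178 and 263 in lung. Cd3e, Cd4 and Ptprc were not called, and Cd3d, with a log2 difference of -1.02, was called no longer without liver replicate 1 (-0.91), kidney replicate 2 (-0.99) or lung replicate 2 (-0.95).

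Epithelial adhesion genes and keratins were split. Of 24 genes 12 were lower, 3 higher and 9 not called, with a median log2 difference of -0.93. Epcam, an adhesion molecule of simple epithelia, was at 4.26 and 2.42 in liver, 38.8 and 49.0 in kidney, 21.0 and 17.2 in lung, and 496 and 688 in small intestine. Cldn7, a tight junction claudin, was at 1.52 and 1.19 in liver and between 7.78 and 305 elsewhere, and Krt19, a keratin of ducts and gut, at 3.30 and 2.33 against 316 and 343 in small intestine. In contrast, Cldn1, a claudin of hepatocyte junctions, was at 31.6 and 41.2 in liver and between 0.0779 and 4.06 elsewhere. Krt18, the type I keratin of hepatocytes, was at 115 and 101 in liver against 61.8 to 66.3 in small intestine, and the desmosomal Dsg2 at 14.9 and 19.3 against 12.1 and 23.6. Krt8, the partner of Krt18, was not called, at 163 and 120 in liver, with 898 and 1143 in small intestine.

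Smooth muscle genes were lower in 12 of 13 tested, with a median log2 difference of -2.45. Myl9, a regulatory light chain, was at 5.61 and 3.59 in liver, 30.0 and 35.4 in kidney, 74.4 and 74.1 in lung, and 148 and 126 in small intestine. Acta2, smooth muscle actin, was at 4.88 and 4.85 in liver, with 15.7 and 21.3 in kidney, and 126 and 105 in small intestine. Myh11, smooth muscle myosin, was at 0.268 and 0.419 in liver, with 28.8 and 24.7 in small intestine. The order of the tissues was the same for these 3 genes, with liver lowest and small intestine highest. Of the 13, 3 were lower than kidney (11.4% of all genes were), 12 lower than lung (19.4%) and 13 lower than small intestine (15.8%). Mylk, the kinase that starts contraction, had a log2 difference of -1.07, which was -0.92 without kidney replicate 1 and -0.94 without liver replicate 1 and then not called.

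Extracellular matrix genes were split. Of 29 genes 14 were lower, 4 higher and 11 not called. Vtn, vitronectin, which is also a plasma protein, was at 1530 and 1554 in liver and between 0.446 and 7.64 elsewhere. Fn1, fibronectin, likewise a plasma protein, was at 80.6 and 73.3 in liver and between 0.942 and 10.7 elsewhere. Col18a1, the collagen that contains endostatin, was at 100.5 and 87.2 in liver and between 2.51 and 11.5 elsewhere. Dcn, a small proteoglycan, was as high in lung, at 50.5 and 41.9 against 49.6 and 49.97 in liver, and was not called with the deposited values. Among the members lower in liver, Fbln1, a fibulin, was at 0.678 and 0.565 in liver, with 35.4 and 39.2 in small intestine. Fbln5, an organiser of elastic fibers, was at 0.886 and 1.16 in liver, with 13.7 and 13.9 in lung. Mfap4, a microfibril protein, was at 1.54 and 1.61 in liver, with 153 and 171 in lung. Col4a1, a basement membrane collagen, was at 4.47 and 3.10 in liver, 13.6 and 11.3 in kidney and 36.8 and 34.3 in lung. Against single tissues, 21 genes were lower than lung (19.4% of all genes were) and 3 higher (17.9%), 7 were lower than kidney (11.4%) and 5 higher (10.6%), and 4 were lower than small intestine (15.8%) and 5 higher (14.0%).

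Pan-endothelial genes depended on the tissue compared and on the scaling. Of 14 genes 5 were lower with a median log2 difference of -0.69, all 14 were lower than lung (19.4% of all genes were), 1 was lower (11.4%) and 1 higher (10.6%) than kidney, and 6 were higher than small intestine (14.0%). Emcn, a sialomucin of capillaries and veins, was at 0.475 and 0.685 in liver, 7.91 and 9.57 in kidney and 7.03 and 6.58 in lung. Cldn5, the endothelial claudin, was at 5.45 and 4.48 in liver, 176 and 231 in lung and 5.57 and 7.10 in kidney. Lung alone therefore set the difference in Cldn5. Without liver replicate 2 the number of lower genes was 3, since Esam (-0.97) and Pecam1 (-0.86) were then not called, and with the deposited values it was 11.

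Cytoskeletal and motility genes were lower in 17 of 24 and higher in 2, with a median log2 difference of -1.54. Beside Ezr, the largest differences were in Cd24a, a surface glycoprotein of epithelial and immune cells, at 2.83 and 2.27 in liver and between 41.4 and 83.4 elsewhere, and S100a11, a calcium-binding protein, at 5.41 and 5.44 and between 45.0 and 205 elsewhere. Anxa2, a membrane-binding annexin, was at 7.20 and 5.34 in liver, 13.5 and 19.8 in kidney, 98.3 and 88.8 in lung, and 142 and 200 in small intestine. Both liver libraries were below all 6 others for these 3 genes, as they were for 14.6% of all genes. Tubb2a, a beta tubulin, was higher, at 164 and 177 in liver and between 20.5 and 59.2 elsewhere, as was Tubb2b, at 19.4 and 22.3, with the scaled values only. Actb, the beta actin often used as a reference gene, was not called, with 154 and 166 in liver and between 85.6 and 697 elsewhere (log2 difference -0.77), but was called lower with the deposited values (-1.79) and with quantile normalization (-1.78).

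Many metabolic steps are carried out by a liver form of an enzyme or carrier and by another form elsewhere, and 15 pairs were compared. The pairs Gamt with Gatm and Bckdha with Bcat2 set a later against the first step of 1 pathway, and the others share a named activity. The name liver form is a label of this comparison. For Gpd1 with Gpd2 and Acacb with Acaca it need not mark a form proper to liver. The liver form was higher in 14 of 15 (12.3% of all genes were). The other form was lower in 8 of 14 tested (13.9%) and higher in 1. In 7 pairs the liver form was higher and the other lower. The ratio of the liver form to the other form, with 1 added to each level, was above that of all 6 other libraries in both liver libraries in 13 of 15 pairs. In 1 of the 13, Cpt1a with Cpt1b, the log2 ratio was 6.21 and 6.23 in liver against 6.09 and 6.09 in kidney. Cpt1b did not pass the filter, and 81.4% of its exon bases are shared with another annotated gene. For glycogen synthase, Gys2 was higher (log2 difference 4.88) and Gys1 lower (-1.36), and the log2 ratio of Gys2 to Gys1 was 5.66 and 4.77 in liver and between -1.97 and 0.34 elsewhere. For pyruvate kinase, Pklr was at 22.5 and 21.8 in liver and Pkm at 5.33 and 4.85, whereas Pkm was at 151 and 132 in small intestine. Pklr itself was not highest in liver, since it reached 35.95 in small intestine replicate 2. The sign of the log2 ratio of Pklr to Pkm changed between liver and every other library. Oxct1, which is needed to use ketone bodies, was at 2.99 and 5.30 in liver, 353 and 450 in kidney, 19.2 and 14.1 in lung, and 26.3 and 22.3 in small intestine.

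Methionine and creatine steps were paired in the same way. Mat2a, the methionine adenosyltransferase of other tissues, was not called, at 104 and 86.7 in liver, with 123 and 122 in kidney. The pair thus differed through Mat1a alone. Creatine synthesis was divided between organs, with Gatm, the first step, at 277 and 376 in kidney and 6.39 and 6.64 in liver, and Gamt, the last step, higher in liver (log2 difference 3.97). Exceptions were Pfkl, which was not called (0.08) although Pfkp was lower (-2.16), Slc2a2 against Slc2a1, where small intestine had the higher ratio, and acetyl-CoA carboxylase, where both Acacb (1.47) and Acaca (1.05) were higher. Without liver replicate 1 neither Acacb (0.98) nor Acaca (0.94) was called, nor was either with the deposited values (0.78 and 0.33), and Acaca was not called without kidney replicate 2 (0.99).

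**Figure D5:**
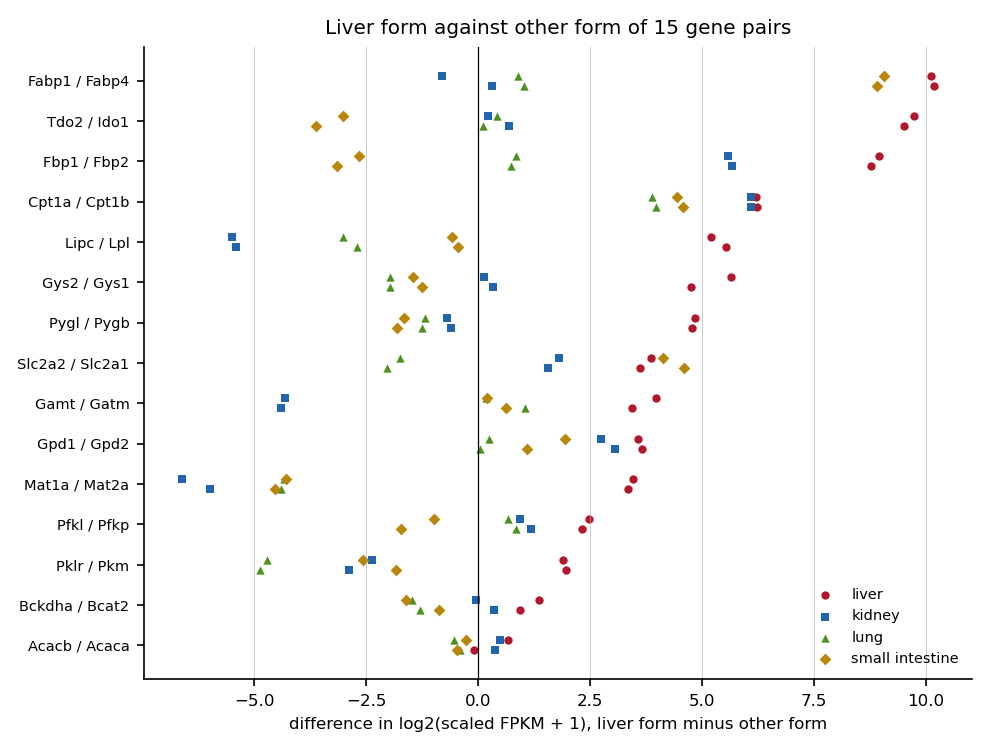
Difference in log2(scaled FPKM + 1), liver form minus other form (x axis), for each of the 15 gene pairs (y axis), 1 point per library colored by tissue. In 13 pairs both liver points lie to the right of all others.

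The peripheral forms and ketone-using enzymes as a list were lower in 15 of 24 tested and higher in none, with a median log2 difference of -1.36. Ckmt1, the mitochondrial creatine kinase, was at 1.82 and 0.990 in liver, 15.5 and 18.2 in kidney and 518 and 557 in small intestine. Ldhb, the lactate-oxidising form of lactate dehydrogenase, was at 3.65 and 4.03 in liver, 671 and 870 in kidney and 49.4 and 51.2 in lung. Ckb, the brain-type creatine kinase, was at 2.73 and 2.72 in liver and between 15.3 and 157 elsewhere. Small intestine was thus the highest tissue for Ckmt1 and Ckb, and kidney for Ldhb. Fabp4, the fat cell form, had a log2 difference of -1.03 and was not called without any of 5 single libraries, among them liver replicate 1 (adjusted p = 0.064) and liver replicate 2 (0.102).

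Markers of the other liver cell types differed by type. All 7 Kupffer cell markers were higher, 4 of them with both scalings. Clec4f, a lectin of Kupffer cells, was at 66.7 and 60.7 in liver and at most 0.130 elsewhere, and Vsig4, a complement receptor of resident macrophages, at 31.4 and 29.6 and at most 0.0571. Marco and Adgre1, shared with lung macrophages, were close to lung, and Adgre1 was at 9.56 and 7.28 in liver, with 6.05 and 4.17 in lung. Markers proper to Kupffer cells thus separated the tissues while general macrophage markers did less. Of 5 sinusoidal endothelial markers tested 4 were higher, 3 of them with both scalings, led by Clec4g, at 37.9 and 26.5 in liver and at most 0.252 elsewhere. Lyve1, also a lymphatic marker, was not called, at 4.94 and 3.70 in liver, with 69.9 and 59.8 in lung, and the list as a whole held 0.0124% and 0.0109% of the non-mitochondrial FPKM in liver against 0.0353% and 0.0313% in lung. Of 5 stellate cell markers tested 3 were higher, of which Colec11, at 21.6 and 16.95 in liver, was called with both scalings, and Des, desmin, was lower, at 1.89 and 1.19 in liver, with 45.1 and 40.04 in small intestine.

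Bile duct markers went the other way, with 4 of 6 lower and 1 higher. Krt7 was at 0.280 and 0.306 in liver and between 4.19 and 19.3 elsewhere, and Sox9, not called, at 2.15 and 0.933. Spp1, osteopontin, was at 61.4 and 91.4 in liver but 311 and 413 in kidney, and its log2 difference of 1.35 was not called with the deposited values and was 1.07 and not called without liver replicate 2 (adjusted p = 0.109). Of the erythroid markers only Alas2, the heme enzyme of red cell precursors, was higher, at 64.3 and 50.3 in liver, 8.21 and 9.66 in lung and at most 3.01 elsewhere. The globins did not follow it. Hbb-bs was at 413 and 410 in liver, 2998 and 3921 in lung and 280 and 969 in kidney, and the erythroid markers together held 0.206% and 0.210% of the non-mitochondrial FPKM in liver against 4.93% and 6.22% in lung. Of the T and B cell markers 6 of 8 were lower, of the lung epithelium markers 6 of 6, of the kidney tubule markers 5 of 6, of the enterocyte markers 3 of 5 and of the pancreatic acinar markers 5 of 7 (13.9% of all genes were). No member of these lists was lower than each of the 3 tissues. Of the lung epithelium markers 6 were lower than lung (19.4% of all genes were), while 4 were higher than small intestine (14.0%) and 2 higher than kidney (10.6%). Of the kidney tubule markers 6 were lower than kidney (11.4%), none lower than lung or small intestine, and 2 higher than small intestine. Sftpc, Scgb1a1 and Slc12a3, each of which is high in 1 other tissue alone, were not called without liver replicate 1 or without liver replicate 2, and Sftpc also not without either lung library or either small intestine library (adjusted p between 0.051 and 0.066). Cela1, an acinar protease gene that was not called, was at 24.4 and 21.4 in liver, 7.04% of its level in small intestine and more than the 0.0944% to 2.30% of the other acinar markers.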

How the data were processed

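The authors selected reads by sample index with bbduk, mapped them to the Ensembl mouse genome GRCm38 with STAR (version 2.5.3a in the submitters' processing notes) and deposited FPKM, for which they used the DESeq2 function fpkm. The program that counted reads on genes and its use of strand are not given in the sources used here. FPKM depends on what the most abundant transcripts take of a library, so each library was divided by a median-of-ratios factor over the 15137 genes above 0 in all 8 libraries. The factors were 0.552 and 0.627 for liver, 1.03 and 0.719 for kidney, 1.82 and 1.90 for lung, and 1.10 and 1.05 for small intestine. Groups and replicate numbers came from the sample titles and tissue labels.

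The test was limma 3.58.1 in R 4.3.3 (lmFit, contrasts.fit, eBayes with a trend) on log2(scaled FPKM + 1), with 1 mean per tissue. It was run on genes whose deposited FPKM reached 1 in 2 libraries or more, and p was adjusted by Benjamini-Hochberg over all 16328 genes. With 2 libraries per tissue the spread was pooled over the 4 tissues, and by the study's methods the 2 replicates of a tissue are from separate mice. All 4 tissues were taken from each mouse, so libraries of different tissues may share an animal, which the labels do not identify. Levels of single libraries are given in place of a mean ± SD. Python 3.11.15 was used for the rest. Of the 52195 genes, 51844 (99.3%) matched 1 gene of the GENCODE M21 annotation, from which coordinates, exon lengths and exon bases shared with other genes on either strand were taken. Multiplied by exon length, 94.6% to 96.1% of values up to 50 reads were whole within 0.02 reads, which gave the reads behind a value. The floor of 3 reads covers counting error only. In simulated libraries of this design, 176 of 200 genes changed 4-fold (88%) and 112 of 200 changed 2-fold (56%) were recovered, and 26 and 24 false calls were made (12.9% and 17.65% of calls, above the share of 5% set by the adjustment), of which 0 and 2 had a mean above 20 reads. The 2-fold simulation set no limit on the log2 difference, unlike the calls in the text. Both simulations gave each unchanged gene the same mean in all tissues and all genes 1 dispersion (0.0246). The real tissues differ in far more genes, so these shares need not hold for them.

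The members, the gene lists, the pairs and the promoter words were chosen with earlier results of these data known. The text names the 10 largest differences in each direction, the list members of largest difference and those against their list, members of the pairs, and the liver transcription factors, except for some genes that are not reported here. Other members are named for a second tissue with a high level and were chosen after their values were seen. The 9 words searched in promoters, on both strands, were GTTAAT, known from promoters of liver genes, CAAAGTCCA for HNF4, TGTTTAC for FOXA, TTGCGCAA for C/EBP, TATAAA for the TATA box, CCAAT for the CCAAT box, CAGGTG for the E box, CCGGAAG for ETS and 1 form of the CArG box, and shares are described for GTTAAT and TATAAA. Alternatives changed the scaling, pseudocount, filter, trend, tool, block and libraries.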

Additional observations from a re-analysis of the deposited data

How the results depend on the processing

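The scaling, the pseudocount and the comparison moved the counts most. Against 2003 genes called higher in liver and 2274 called lower, with 1071 and 2271 in both scalings, the deposited FPKM gave 1071 higher and 5334 lower, and libraries set to the same sum without mitochondrial genes gave 984 higher and 6087 lower, with 5278 lower beside the deposited values. A pseudocount of 0.1 gave 4299 genes lower and 4298 with both scalings, and a pseudocount of 10 gave 962 higher and 474 lower, with 555 and 472 in both scalings. Requiring the threshold against each of the 3 tissues gave 1008 higher and 310 lower, with 611 and 302 in both scalings. Quantile normalization, filters at 5 or after scaling, no filter, a filter on a mean of 20 or more recovered reads (chosen after seeing the data), no trend and limma-voom on recovered reads kept all 4 counts within 1.5 times. Leaving out 1 library at a time gave 1816 to 2091 genes higher, 2212 to 2283 lower, 1038 to 1094 higher with both scalings and 2207 to 2283 lower with both.

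Of the list members and named genes, 35 changed sign with the same sum without mitochondrial genes, 30 with the deposited values and 11 with quantile normalization. Of the 35, 5 had a call in either fit, where the log2 difference of Acadm was -0.033, the log2 difference of Hadhb -0.10, the log2 difference of Krt8 -1.03, the log2 difference of Marcks -1.02 and the log2 difference of S100a10 -1.07. With voom 10 changed sign, of which 1 had a call, and the log2 difference of Foxj1 was 0.029. Cd4, Ptprc, Gatm, Gata6, Lyve1, Cela1 and Hbb-bs were not called after scaling but were called lower with the deposited values. The pseudocount of 10 ended 106 calls of single genes, mostly of genes with low levels. Depth limits the statements on genes near 3 reads, such as S100g.

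Whether equal replicate numbers mark the same mouse is not given in the sources used here. They were not treated as pairs, since the deviations of equal numbers correlated between -0.217 and 0.027 over the 6 pairs of tissues. A replicate block gave 1997 genes higher and 2275 lower, with 1068 and 2273 in both scalings, and changed no call of a named gene.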

Other observations

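Gene families taken by symbol were counted as the lists were, beside 12.3% higher and 13.9% lower over all genes tested. Of 70 cytochrome P450 genes tested 52 were higher in liver and 12 lower, of 17 UDP-glucuronosyltransferases 14 and 2, of 21 glutathione S-transferases 13 and 1, and of 18 clade A serpins 13 and 1. Of 18 aldehyde dehydrogenases 12 were higher and 5 lower, and of 14 carboxylesterases 11 and 1. Of 15 hydroxysteroid dehydrogenases 11 were higher and 2 lower, and of 8 acyl-CoA synthetases 5 and 1. Some other families of metabolism and transport were not mostly higher. Of 8 sulfotransferases 3 were higher and 2 lower, of 11 acyl-CoA thioesterases 1 and 2, and of 10 Slco carriers of organic anions 4 and 4. Of 186 immunoglobulin genes tested 138 were lower and none higher, and of 28 chemokines 15 (53.6%) were lower and 4 (14.3%) higher. The Slc22 carriers of organic ions, many of which serve renal secretion, were lower in 11 of 21 and higher in 5. Of 10 laminins 5 were lower and none higher, of 28 integrins 6 (21.4%) and none, and of 30 potassium channels 9 (30%) and 1. Paralogs in these families can share reads.

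Families of general cell functions were mostly not called after scaling. Of 95 cytosolic ribosomal proteins 1 was higher and 1 lower, with a median log2 difference of -0.14, equal to that over all genes. Of 37 nuclear subunits of complex I of the respiratory chain none was called, with a median of 0.36, and of 38 proteasome subunits 3 were higher and 1 lower, with a median of 0.63. Of 288 zinc finger proteins 19 were higher and 6 lower. With the deposited values the medians were -1.11 for ribosomal proteins, -0.61 for complex I and -0.35 for the proteasome, beside -0.72 over all genes. The sign of the last 2 families thus changed with the scaling, as the values of all genes shifted. Both families lay above the median over all genes with either scaling.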
